A study of Homo sapiens with 8 samples.

Results

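The proteins that carry the signal of the receptor tyrosine kinase MET from the membrane into the cell were followed at the level of their messenger RNA in 2 breast cancer cell lines with and without knockdown of MET. The members are a list of 10 genes (SRC, GRB2, SHC1, GAB1, SOS1, PTPN11, CBL, PIK3CA, PIK3R1 and STAT3), and every array probe set naming 1 of them and no other gene was taken. Of the 10 genes, 9 had such a probe set, out of 18239 genes in all, and they hold 39 of 45253 probe sets. PIK3CA, the p110 alpha catalytic subunit of phosphatidylinositol 3-kinase (PI3K), was not analysed here. A probe set was tested when at least 2 arrays gave it a log2 value above 4.41, the 40th percentile of the table. By that filter 29 of the 39 member probe sets were tested (of 28860 in the table), and the 10 left out are 7 of the 8 of GAB1, 2 of the 8 of PIK3R1 and 1 of the 4 of PTPN11.

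The study measured total RNA on 8 single-colour Affymetrix arrays, 2 for each of 4 groups: 231BrM control, 231BrM with doxycycline, SKBrM3 control and SKBrM3 with doxycycline. 231BrM is a brain-metastatic derivative of the MDA-MB-231 breast cancer line, and the name SKBrM3 marks a derivative of SK-BR-3. Cells of both lines carry a short hairpin RNA against MET (shMet) that doxycycline switches on, the controls included, and all were grown in DMEM with 10% FBS. Treated cells received 100 ng of doxycycline (the volume is not in the labels) over 48 h. Since hairpin-free cells with doxycycline are not among the groups, what the drug does by itself and what loss of MET does cannot be told apart. The labels do not say whether the cells are 1 clone or a pool, nor whether the 2 arrays of a group are separate cultures. The p-values therefore rest on array-to-array spread that may be technical only.

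MET is the receptor of hepatocyte growth factor. When it is activated, tyrosines in its tail are phosphorylated and dock adaptor proteins. GRB2 and SHC1 bring in SOS1, which loads RAS with GTP, while GAB1 forms a scaffold on which the phosphatase SHP2 (encoded by PTPN11) and PI3K assemble. SRC and STAT3 are also engaged by the receptor, and CBL is the ubiquitin ligase that marks MET for degradation. Much of this signalling is set by phosphorylation and protein contacts, which RNA levels do not measure.

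SHC1, the member with the largest called difference between the lines, has a pair of start sites in the RefSeq promoter table (GRCh38.p14). The arrays do not tell which start is used. The 250 bases before each start are shown. These windows are reference sequence, not read from either line, and a part of them in that difference was not tested. Both lie on the minus strand of chromosome 1, at chr1:154974377-154974626 for start 1 and chr1:154970748-154970997 for start 2, and are written 5′ to 3′. Capitals mark the GC box, searched as GGGCGG or its reverse complement CCGCCC.
SHC1 start 1: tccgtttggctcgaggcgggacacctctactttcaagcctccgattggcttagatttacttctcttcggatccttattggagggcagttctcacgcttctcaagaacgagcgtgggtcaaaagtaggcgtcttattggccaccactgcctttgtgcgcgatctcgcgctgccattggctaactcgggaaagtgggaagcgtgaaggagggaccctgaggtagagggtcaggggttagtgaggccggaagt
SHC1 start 2: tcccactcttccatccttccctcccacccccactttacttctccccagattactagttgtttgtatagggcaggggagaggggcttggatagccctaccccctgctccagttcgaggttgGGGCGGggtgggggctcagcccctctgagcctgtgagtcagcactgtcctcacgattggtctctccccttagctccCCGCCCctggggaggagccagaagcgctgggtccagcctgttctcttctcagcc
The window of start 1 holds 0 GC boxes and has a GC content of 55.2%. The window of start 2 holds 2, which lie 130 and 54 bases before the start, and has a GC content of 61.6%. Of 35116 promoter windows of this length in the table, 42.6% hold at least 1 GC box. A match is a description of the letters only.

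MET itself, the target of the hairpin, was lower with doxycycline in both lines. Its brightest probe set (11716408_a_at) read 9.45 and 9.26 on the 231BrM control arrays and 5.85 and 5.35 with doxycycline, a log2 change of -3.76 (limma, adjusted p = 0.00116). On the arrays labelled SKBrM3 it read 9.26 and 9.20 without and 5.76 and 5.71 with doxycycline, a change of -3.50 (limma, adjusted p = 0.000387). The groups did not overlap, and all 4 tested MET probe sets fell in both lines. With the 231BrM arrays fitted alone, none of the 4 was called there (limma adjusted p = 0.137 for the brightest). The first of the 231BrM doxycycline arrays stood apart from the rest: its actin control probes gave a 3′ minus 5′ difference of 1.24 log2 units, where the other 7 arrays gave 0.46 to 0.59, and it differed from its replicate by more than 2-fold at 787 of the tested probe sets, against 7, 4 and 0 for the other pairs. The arrays labelled SKBrM3 did not show the defining features of SK-BR-3 cells. ERBB2, amplified in SK-BR-3, averaged 6.71 in their controls and 6.81 in the 231BrM controls, the epithelial cadherin CDH1 lay below the filter in all groups at group means of 3.88 to 4.02, and 0 of 12 SK-BR-3 markers stood more than 1 log2 unit higher in SKBrM3 than in 231BrM controls. Of those 12, 9 were above the filter, among them the keratin KRT18 at 10.6 in SKBrM3 and 11.2 in 231BrM controls, and MIEN1, a neighbour of ERBB2, at 8.92 and 8.19. All 9 measured markers of MDA-MB-231 were above the filter, with vimentin (VIM) at 12.8 in the SKBrM3 and 12.9 in the 231BrM controls. SKBrM3 below is therefore the group as labelled. Of 14 measured markers of other cell types (blood, vessel, stroma and brain), 8 passed the filter on some arrays, CD45 (PTPRC) lay near 3.40 in both control groups, and the summed level of the list was 8.58 to 8.66 (log2) on the 8 arrays.

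The first comparison asked what doxycycline did to the members' own RNA in each line. None of the 29 tested member probe sets passed the test. In 231BrM 0 of 29 were called by limma at an adjusted p under 0.05, where 0.0658% of all tested probe sets were called, and 6 (20.7%) had an unadjusted p under 0.05, as had 8.09% of all. In SKBrM3 0 of 29 were called, where 1.44% of all were (0.277% higher and 1.16% lower), and 4 (13.8%) had an unadjusted p under 0.05, as had 17.2% of all. Averaged over the lines, 0 of 29 were called against 1.5% of all (0.208% higher and 1.3% lower), with 8 (27.6%) at an unadjusted p under 0.05, as were 16.1% of all. The members' median change was -0.16 log2 units in 231BrM, with all tested probe sets at 0.02, and -0.08 in SKBrM3, with all at 0.00. Over all tested probe sets the standard error of such a change had a median of 0.106. The test was also run on simulated data for the 231BrM comparison. Before a change was added, every array of a probe set there shared 1 mean and 1 spread pooled over the groups. The wider gap of the 231BrM doxycycline pair was thus not reproduced. The test recovered 76% of changes of 1 log2 unit and 20% of changes of 0.5. In those simulated data smaller shifts were mostly beyond its reach, and its reach at the arrays' own spread was not measured.

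Without a call, the groups can still be set beside each other array by array. In 231BrM the doxycycline and control arrays did not overlap for 10 of the 29 member probe sets, 9 of them lower and 1 higher with doxycycline. The same held for 35.3% of all tested probe sets, 13.7% lower and 21.6% higher. In SKBrM3 16 of 29 did not overlap, 11 lower and 5 higher, against 59.2% of all (30.2% lower and 29% higher).

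**Figure D1:**
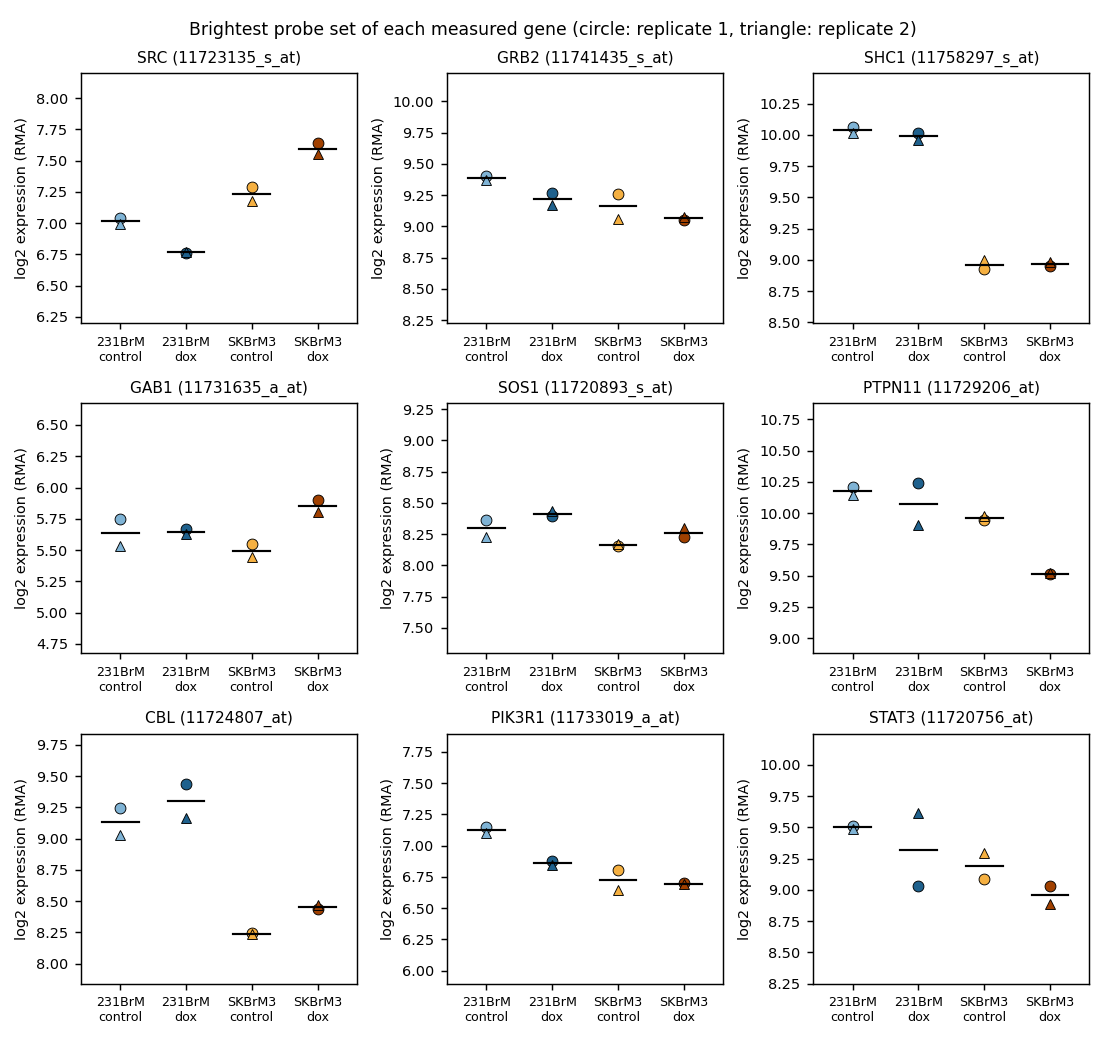
Log2 level of 1 probe set of each measured member (vertical axis) on each of the 8 arrays, by group (horizontal axis); points are arrays and short bars are group means, n = 2 arrays per group. SHC1 lies near 10 in both 231BrM groups and near 9 in both SKBrM3 groups, and SRC is lowest in 231BrM with doxycycline and highest in SKBrM3 with doxycycline.

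SRC is a non-receptor tyrosine kinase that binds activated MET. Its brighter probe set (11723135_s_at) read 7.04 and 6.99 on the 231BrM control arrays and 6.76 and 6.77 with doxycycline. In SKBrM3 it read 7.29 and 7.17 without and 7.64 and 7.55 with doxycycline. Both doxycycline arrays were thus below both controls in 231BrM and above both in SKBrM3. The change was -0.25 log2 units (SE 0.08, 95% interval -0.44 to -0.06, limma adjusted p = 0.555) in 231BrM and 0.36 (SE 0.08, 0.17 to 0.55, adjusted p = 0.0883) in SKBrM3. Neither was called. The second SRC probe set (11723136_x_at) gave -0.20 in 231BrM and 0.21 in SKBrM3, where its doxycycline arrays lay within the range of the controls (5.55 to 6.04). Suffixes _s_at and _x_at mark probe sets that can also match other transcripts, and both SRC probe sets carry one.

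The adaptors GRB2 and SHC1 link the receptor to SOS1. GRB2 probe set 11718334_a_at read 9.14 and 9.08 in SKBrM3 controls and 8.80 and 8.83 with doxycycline, a change of -0.29 (95% interval -0.65 to 0.06, limma adjusted p = 0.365). The SKBrM3 groups did not overlap, but in 231BrM the doxycycline arrays read 8.64 and 9.13 around controls of 9.002 and 9.10. The other GRB2 probe set gave -0.16 and -0.10 in 231BrM and SKBrM3. The brightest SHC1 probe set (11758297_s_at) gave changes of -0.05 (95% interval -0.23 to 0.13) and 0.01 (-0.17 to 0.18), so its intervals hold only shifts under 0.25 in either line. The 3 dimmer SHC1 probe sets gave -0.15 to -0.58 in 231BrM and -0.14 to -0.26 in SKBrM3, none called. The largest of these, -0.58 for 11732136_a_at, was 0.06 without the first 231BrM doxycycline array. At 11727363_a_at and 11727364_s_at the treated arrays lay below the controls of their own line in both lines.

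GAB1 is the scaffold that prolongs MET signalling. Its single tested probe set (11731635_a_at) read 5.55 and 5.44 in SKBrM3 controls and 5.90 and 5.80 with doxycycline. The change of 0.36 (SE 0.10, 95% interval 0.13 to 0.59, limma adjusted p = 0.14) was not called. In 231BrM the arrays overlapped, at 5.75 and 5.53 without and 5.67 and 5.63 with doxycycline (change 0.01, 95% interval -0.22 to 0.24). The other 7 GAB1 probe sets had means over the 8 arrays down to 3.52, below the filter level, and give no measured change.

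SOS1 is the exchange factor that activates RAS. Of its 4 probe sets, 3 gave -0.04 to 0.12 in the 231BrM and 0.00 to 0.10 in the SKBrM3 comparison. The remaining one (11720892_at) read 5.17 and 5.09 in SKBrM3 controls and 5.53 and 5.47 with doxycycline. These arrays did not overlap, yet the change of 0.37 (95% interval -0.01 to 0.74, limma adjusted p = 0.297) was not called. In 231BrM the same probe set read 5.68 and 5.50 without and 5.90 and 5.40 with doxycycline.

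PTPN11 encodes SHP2, the phosphatase that GAB1 recruits and that sustains RAS signalling. Its brightest probe set (11729206_at) read 9.95 and 9.98 in SKBrM3 controls and 9.51 and 9.52 with doxycycline. Both treated arrays were lower, by -0.45 log2 units (SE 0.11, 95% interval -0.72 to -0.18, limma adjusted p = 0.119), which was not called. In 231BrM it read 10.2 and 10.1 without and 10.2 and 9.90 with doxycycline, so the groups overlapped (change -0.10). The _x_at and _s_at probe sets gave -0.67 and -0.44 in SKBrM3, with the treated arrays below the controls in both. They gave -0.76 and -0.40 in 231BrM, where the groups overlapped and the first doxycycline array was the lowest at both. There the _x_at probe set read 5.02 and 6.20 with doxycycline against controls of 6.02 and 6.72. The _s_at probe set read 3.774 and 4.675 against controls of 4.362 and 4.895.

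The SKBrM3 values of SRC, PTPN11, GAB1, SOS1 and GRB2 depended on which arrays set the spread, which the test shares over all 4 groups. With the SKBrM3 arrays fitted alone, 5 member probe sets were called (limma adjusted p = 0.0421 for SRC, 0.0167 for PTPN11 11729206_at, 0.0431 for GAB1, 0.0341 for SOS1 11720892_at, and a call also for PTPN11 11729208_x_at). Calls were more frequent over the whole table too: this fit called 17.2% of the member probe sets and 8.51% of all tested. The sizes were the same, since the group means were. Leaving out either 231BrM doxycycline array gave 4 calls in SKBrM3: SRC (0.0291), PTPN11 11729206_at (0.0102), SOS1 11720892_at (0.0375) and GRB2 11718334_a_at (0.046). These are 13.8% of the member probe sets, where 9.29% of all were called in the same fits.

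CBL attaches ubiquitin to activated MET. Its brightest probe set (11724807_at) read 9.25 and 9.03 in 231BrM controls, 9.44 and 9.16 with doxycycline, and 8.24 and 8.24 in SKBrM3 controls against 8.44 and 8.47 with doxycycline. The changes of 0.17 and 0.21 were not called (limma adjusted p = 0.681 and 0.398), although the SKBrM3 groups did not overlap. Probe set 11724809_at showed how far the first 231BrM doxycycline array could reach: it read 5.30 on that array and 6.84 on its replicate, against controls of 6.58 and 6.62. Its change in 231BrM was -0.53 with both arrays and 0.24 without the first. In SKBrM3 11724809_at read 5.96 and 5.96 without and 5.73 and 5.50 with doxycycline, so its groups did not overlap either. That change of -0.35 (limma adjusted p = 0.717) was opposite to the brightest probe set and not called. In 231BrM and SKBrM3, 11724810_at gave -0.38 and -0.03, and 11724808_at gave -0.03 and 0.04.

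PIK3R1 encodes p85 alpha, the regulatory subunit that docks PI3K to GAB1. All 6 tested probe sets had negative changes in 231BrM, from -0.03 to -0.53, and none was called (limma adjusted p from 0.473 to 0.955). Except at the brightest, the first doxycycline array, which stood apart, read lower than the second, and the first control array also read lower than the second control. At 11754631_x_at the doxycycline arrays read 4.196 and 4.571, both below controls of 4.827 and 4.993. At 11733017_a_at they read 4.304 and 4.518, both below controls of 4.733 and 4.962. The groups overlapped at 11733018_s_at and at 11739540_a_at. For 11739540_a_at the first doxycycline array read 4.106 and the second 4.483, against controls of 4.204 and 4.437. The brightest (11733019_a_at) read 7.15 and 7.10 without and 6.88 and 6.85 with doxycycline, groups that did not overlap, and gave -0.26 (95% interval -0.45 to -0.07); it was -0.27 without the first doxycycline array. In SKBrM3 the same probe set gave -0.03, with overlapping groups. Probe set 11739539_a_at was the most alike in both lines. It read 6.24 and 6.40 without and 5.85 and 6.08 with doxycycline in 231BrM, and 5.85 and 5.82 against 5.37 and 5.60 in SKBrM3. Its average change was -0.36 (95% interval -0.55 to -0.16, limma adjusted p = 0.102), and all 4 treated arrays lay below the controls of their own line. The same order held for PIK3R1 11733017_a_at (average -0.32, limma adjusted p = 0.134). It also held for SHC1 11727363_a_at and 11727364_s_at (averages -0.145 and -0.41, limma adjusted p = 0.314 and 0.24). How many of all tested probe sets showed it was not counted.

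STAT3 is a transcription factor that MET phosphorylates. Its brightest probe set (11720756_at) read 9.51 and 9.49 in 231BrM controls against 9.03 and 9.61 with doxycycline, which overlapped. In SKBrM3 it read 9.09 and 9.29 against 9.03 and 8.89, which did not. The changes were -0.18 and -0.23 (95% intervals -0.60 to 0.24 and -0.66 to 0.19), neither called. The other 2 STAT3 probe sets lay between -0.08 and 0.11 in both lines.

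**Figure D2:**
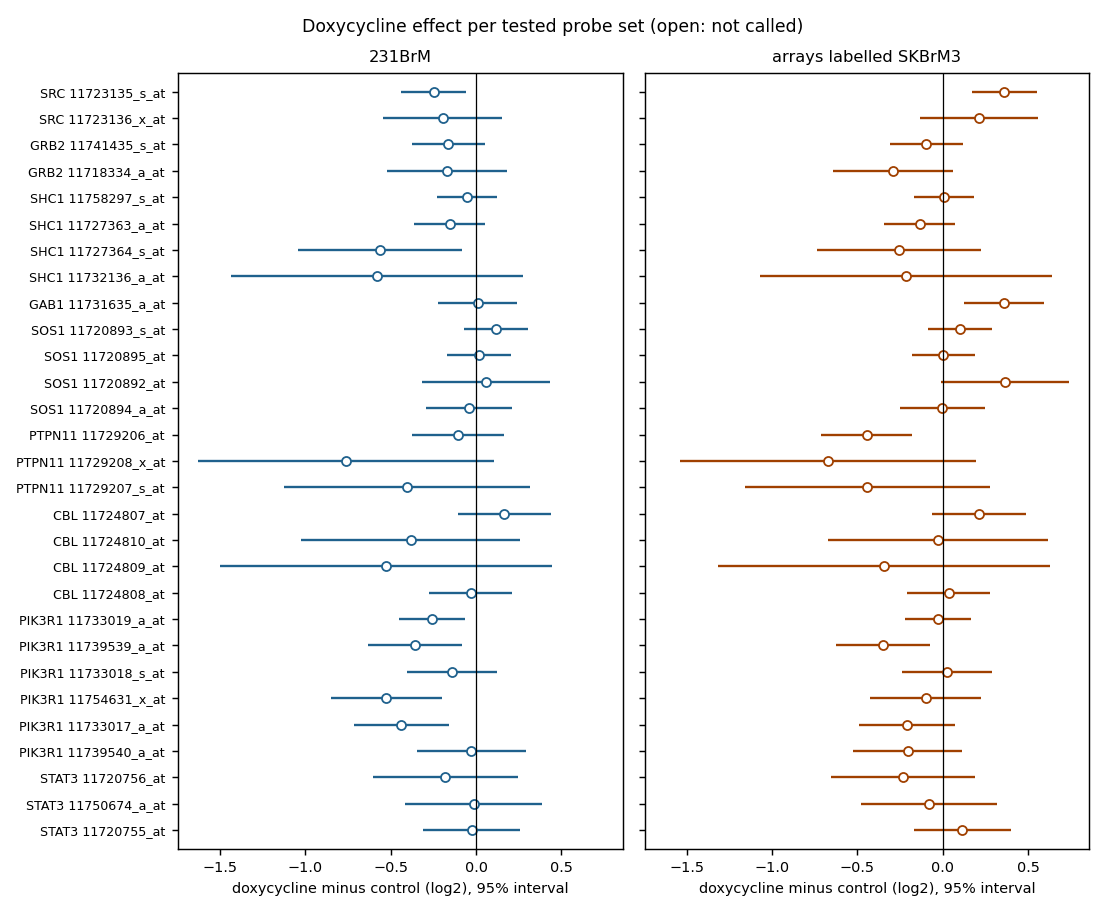
Doxycycline effect on the log2 scale (horizontal axis, points with 95% intervals from limma) for each of the 29 tested member probe sets (vertical axis) in 231BrM and in SKBrM3, n = 2 arrays per group. None was called, most intervals include 0, and SRC 11723135_s_at lies at -0.25 in 231BrM and at 0.36 in SKBrM3.

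The negative values of the members in 231BrM varied with the arrays used. With all arrays, 24 of 29 member probe sets had a negative change there, against 43.8% of all tested probe sets. Without the first doxycycline array 17 of 29 did, against 48.4% of all, and the members' median was -0.08 in place of -0.16. Without the second doxycycline array 21 of 29 did, against 40.3% of all, and the median was -0.24. Leaving out either 231BrM control gave 22 and 24 of 29, with medians of -0.17 and -0.14. Within the 231BrM doxycycline group 9 of the 29 member probe sets differed by more than 0.5 log2 units between the 2 arrays. Of these, 8 were lower on the first array, and the other groups had 2, 0 and 0 such probe sets. The gap reached 1.53, for CBL. The first 231BrM doxycycline array also had the highest 3′ minus 5′ difference of the GAPDH control probes, 0.33 against -0.02 to 0.09 elsewhere. The part of RNA quality in these gaps was not tested.

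**Figure D3:**
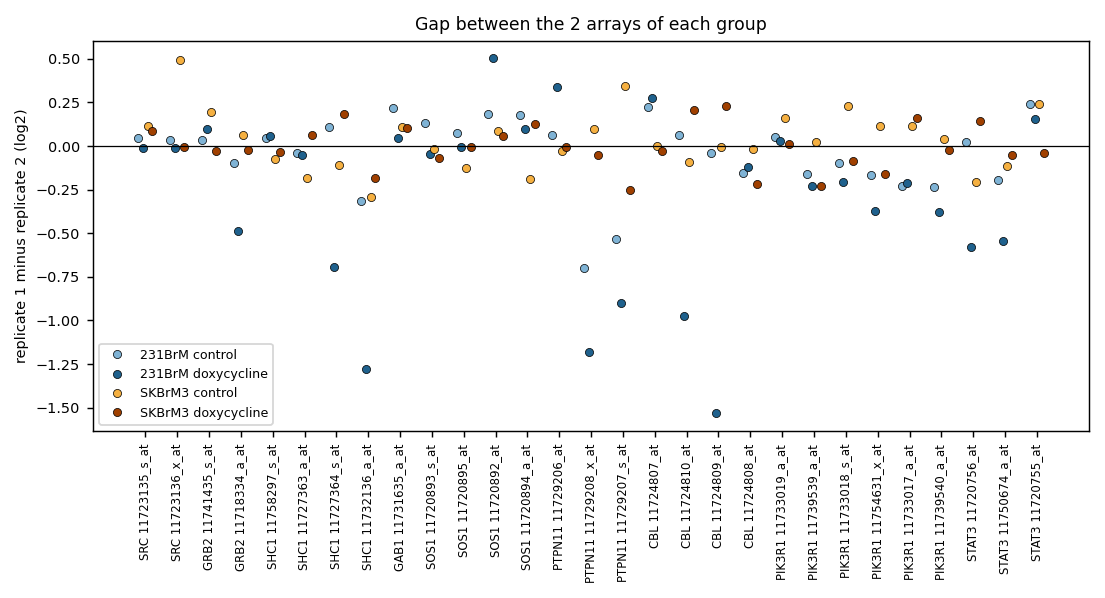
Difference between the first and the second array of a group (log2, vertical axis) for each of the 29 tested member probe sets (horizontal axis). Colours mark the 4 groups, with 1 point per probe set and group. The 231BrM doxycycline pair spreads furthest, with a gap of 1.53 for CBL, while no member differs by more than 0.5 in either SKBrM3 group.

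Whether the doxycycline effect differed between the lines was tested as the difference of both effects. By limma 0 of 29 member probe sets were called, as were 0% of all 28860 tested, and 2 members (SRC and GAB1) had an unadjusted p under 0.05, as had 9.41% of all. For SRC 11723135_s_at the effect in 231BrM minus that in SKBrM3 was -0.61 log2 units (SE 0.11, 95% interval -0.88 to -0.34, limma adjusted p = 0.383). For GAB1 it was -0.35 (95% interval -0.67 to -0.02, limma adjusted p = 0.511). PTPN11 11729206_at gave 0.34 (95% interval -0.04 to 0.72), and the brightest probe sets of SHC1 and CBL gave -0.06 and -0.05, with intervals of -0.31 to 0.19 and -0.43 to 0.34.

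The second comparison set the lines against each other without doxycycline. Here 10 of 29 member probe sets (34.5%) were called by limma, all of them higher in 231BrM, in 5 genes: SHC1, CBL, SOS1, PIK3R1 and STAT3. Of all tested probe sets 33.4% were called, 17.1% higher and 16.3% lower in 231BrM, so the share called was near the background. The members' median difference was 0.31, against -0.04 for all. The control arrays of the lines did not overlap for 25 of 29 member probe sets, 22 higher and 3 lower in 231BrM, against 75.9% of all (33.7% higher and 42.1% lower).

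SHC1 differed most. Probe set 11758297_s_at read 10.1 and 10.0 in 231BrM controls and 8.92 and 8.996 in SKBrM3 controls, a 2.11-fold higher level in 231BrM (log2 1.08, SE 0.07, 95% interval 0.90 to 1.26, limma adjusted p = 0.000113). With doxycycline it read 10.0 and 9.96 in 231BrM and 8.95 and 8.98 in SKBrM3, so no array of one line reached the other. Probe set 11727363_a_at gave 2.50-fold (log2 1.32, limma adjusted p = 9.75e-05), from 8.17 and 8.21 against 6.77 and 6.96. A further probe set, 11727364_s_at, was also higher (0.89, adjusted p = 0.0144), and 11732136_a_at gave 0.85 without a call (adjusted p = 0.116).

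CBL was higher in 231BrM by its brightest probe set, 1.86-fold (log2 0.90, 95% interval 0.62 to 1.17, limma adjusted p = 0.00135), at 9.25 and 9.03 against 8.24 and 8.24. Its other 3 probe sets gave 0.84, 0.64 and 0.15, none called. SOS1 was higher by 1 of 4 probe sets: 11720895_at read 7.60 and 7.53 against 6.97 and 7.10 (log2 0.53, limma adjusted p = 0.00238). For the other 3 the differences of 0.13 to 0.46 were not called. The SHC1 probe sets 11758297_s_at and 11727363_a_at and these called probe sets of CBL and SOS1 kept their call in all alternatives run.

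PIK3R1 was higher in 231BrM by 4 of 6 probe sets, with differences of 0.40, 0.49, 0.65 and 0.54 (limma adjusted p from 0.00955 to 0.0172). The brightest read 7.15 and 7.10 against 6.81 and 6.65, groups that did not overlap. One PIK3R1 probe set pointed the other way without a call (11739540_a_at, -0.19). STAT3 was higher by 1 of 3 (11720755_at, 8.62 and 8.38 against 8.17 and 7.93, log2 0.45, adjusted p = 0.027). Each of these 5 calls, and that of SHC1 11727364_s_at, was lost on leaving out some single array, with adjusted p up to 0.168 for STAT3.

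SRC was the member with lower values in 231BrM at both probe sets (-0.22 and -0.39, limma adjusted p = 0.0757 and 0.0803), not called. GRB2, GAB1 and PTPN11 lay between -0.06 and 0.22 with no call. The 95% interval of GRB2 11741435_s_at was 0.01 to 0.44, and that of GAB1 was -0.09 to 0.37.

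**Figure D4:**
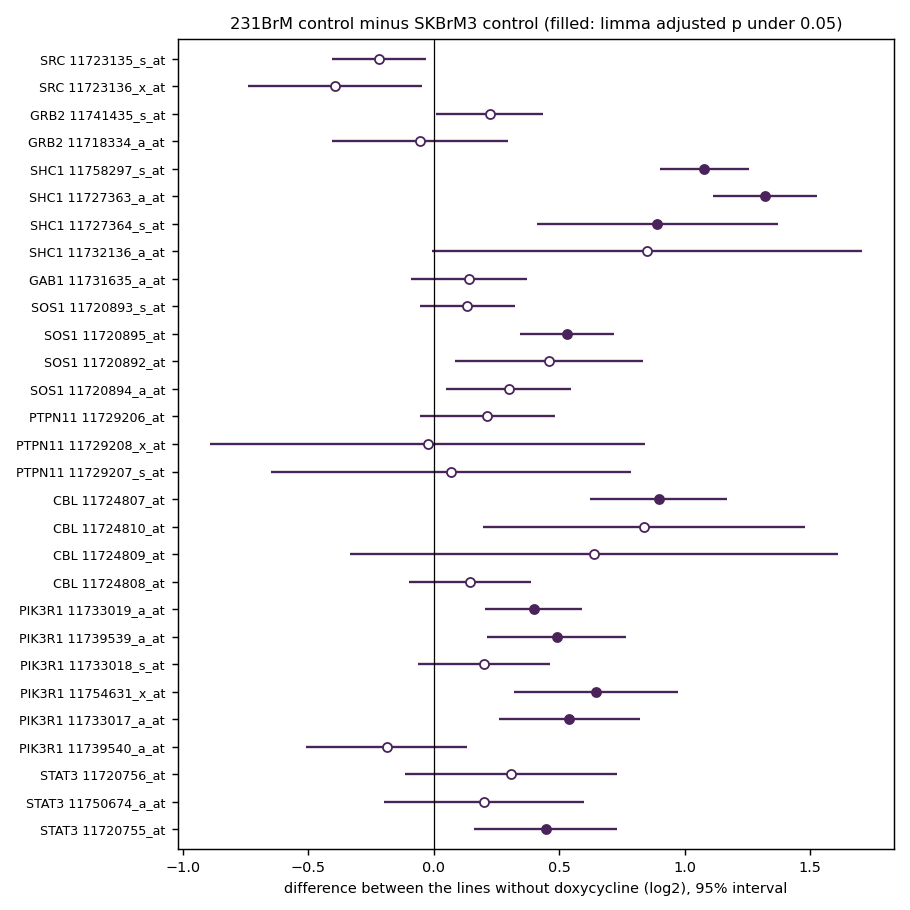
Difference between the 231BrM and SKBrM3 control groups on the log2 scale (horizontal axis, points with 95% intervals from limma, filled where the adjusted p is under 0.05) for the 29 tested member probe sets (vertical axis), n = 2 arrays per group. The 10 filled points all lie to the right of 0, SHC1 reaches 1.32, and both SRC probe sets lie to the left.

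Relatives and partners of the members were described by 6 lists. In 231BrM no probe set of any list was called for doxycycline by limma, with 0% to 18.6% of a list at an unadjusted p under 0.05, as were 8.09% of all. In SKBrM3 1 was called, ERRFI1 (11715659_s_at) in the list of phosphatases and ubiquitin ligases, an inhibitor of the EGF receptor family. It read 10.1 and 10.3 in SKBrM3 controls and 9.42 and 9.55 with doxycycline, and fell by 0.68 log2 units (limma adjusted p = 0.0256). In 231BrM it read 10.4 and 10.3 without and 10.0 and 9.98 with doxycycline, a change of -0.33 (adjusted p = 0.543), and its average fell by 0.50 (adjusted p = 0.0211). Both calls were lost on leaving out any 1 of the 6 arrays other than the 231BrM doxycycline arrays, with adjusted p of 0.0755 to 0.252 in SKBrM3 and 0.0615 to 0.131 for the average. The STAT3 pathway list had 0 of 43 called in SKBrM3 by limma and 19 (44.2%) at an unadjusted p under 0.05, where 17.2% of all were, with a median of -0.11 against 0.00 for all. The other 5 lists had 11.3% to 22.2% of their probe sets at that unadjusted level there.

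Between the lines without doxycycline, 33.4% of all tested probe sets were called, 17.1% higher and 16.3% lower in 231BrM. The partners of RAS had 25 of 48 tested probe sets called (52.1%), in 7 genes and all higher in 231BrM. They include the kinase PAK2 (1.02) and the GTPase RAC1 (0.69), and RAP1A, whose probe set 11762533_a_at differed by 5.55 while its other 3 gave 0.27 to 0.29. Of the STAT3 pathway 19 of 43 (44.2%) were higher and 0 lower, among them the gp130 receptor subunit IL6ST (1.06), STAT5A (0.79) and IL6 (1.48 by 1 probe set and -0.30 by the other). The adaptor relatives had 13 higher and 2 lower of 45 (33.3% called, near the share over all), with GRB14 at 0.70, GRB10 at 0.57 and the phospholipase PLCG2 at -0.48. Among relatives of SRC 4 of 18 (22.2%, a smaller share than over all) were higher and 0 lower, in the kinases YES1 (1.28) and LYN (0.78). In the list of phosphatases and ubiquitin ligases 12 were higher and 4 lower of 42 (38.1% called). There the CBL-binding adaptor SH3KBP1 gave -1.39, the receptor inhibitor LRIG1 1.37 and the lipid phosphatase INPPL1 0.61. The PI3K and AKT list had 8 higher and 1 lower of 53 (17% called, a smaller share than over all). Its called genes with the smallest p were the catalytic subunit PIK3CD (1.40 by 1 probe set, 0.10 and 0.02 by the others), the regulatory subunit PIK3R3 (1.14) and PIK3C2A (1.12).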

How the data were processed

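Total RNA of 8 arrays (2 in each of 4 groups) was measured. The deposited values are log2 values, 1 per probe set and array, made by the authors with RMA per the submitters' processing notes; the sources used here give neither its version nor the chip definition. RMA gives all arrays nearly the same distribution (medians 4.92 to 4.97), so a change of total RNA cannot be seen. Of 49386 probe sets, 93 controls, 1327 naming several genes and 2713 unnamed ones were left out, and symbols were updated through RefSeq (GRCh38.p14). Values were fitted with limma 3.58.1 (R 4.3.3) with 1 mean per group, on all 8 arrays together (residual degrees of freedom 4, prior 3.22). Tests were two-sided, with Benjamini-Hochberg adjustment over all 28860 probe sets tested, and called means an adjusted p under 0.05. Precision is limited by the small number of arrays. The procedure was tested on simulated data.

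Named are all probe sets of the members, MET, list genes called for doxycycline, and the 3 called genes per list with the smallest p between the lines. Members and lists were chosen with earlier results of these data known. Alternatives were 1 probe set per gene, no filter, array weights, the compared arrays alone, median centring, a replicate block and leaving out each array.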

Additional observations from a re-analysis of the deposited data

Results flagged for a closer look

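SRC (probe set 11723135_s_at) was singled out because its doxycycline arrays lay on opposite sides of their controls in the 2 lines. Both were lower in 231BrM and both were higher in SKBrM3. In each line taken alone, 35.3% (231BrM) and 59.2% (SKBrM3) of all tested probe sets had groups that did not overlap. How many did so in opposite directions was not counted. For this SRC probe set the effect in 231BrM minus the effect in SKBrM3 was -0.61 log2 units (SE 0.11, unadjusted p = 0.00094 by limma, a model fitted across all probe sets). After Benjamini-Hochberg adjustment over all probe sets it did not pass (adjusted p = 0.383). At this probe set the 231BrM doxycycline arrays read nearly alike, 6.76 on the first and 6.77 on the second. Leaving out the second 231BrM doxycycline array gave a difference of -0.62. The array that stood apart was then alone in its group, its spread assumed to be that of the other groups. The call that this SRC probe set received in that fit therefore cannot decide whether the lines differ. With all arrays the second SRC probe set gave -0.41 (limma adjusted p = 0.595). With 2 arrays per group, no rule for single outlying arrays was used to flag probe sets. The gaps between the arrays of each group are described above, where the first 231BrM doxycycline array stood apart.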

How the results depend on the processing

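Among the 184 log2 changes of named probe sets, no called change took the opposite sign under any alternative, while 105 of 2389 recomputed values did so without a call. For members in SKBrM3 the count of doxycycline calls was 0, and 1 with 1 probe set per gene (SRC), 3 with array weights, 5 with SKBrM3 arrays alone and 0 to 4 on leaving out 1 array. Leaving out 1 array gave 0 to 11 member calls in 231BrM, 0 to 14 for the average and 0 to 7 for the difference of effects; the highest counts come from leaving out the second 231BrM doxycycline array, which leaves the array that stands apart alone in its group, its spread assumed to be that of the other groups. Without the first one the counts were 0, 1 and 0. Between the lines the 10 member calls became 3 with 1 probe set per gene (9 member probe sets tested), 20 with array weights (18 higher, and 2 lower in 231BrM), 16 with control arrays alone and 5 to 19 on leaving out 1 array: 19 without either 231BrM doxycycline array, 6 without the second 231BrM control and 5 without the second SKBrM3 control.

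Over all probe sets, the 19 calls in 231BrM were 7 with array weights, 0 with 231BrM arrays alone and 2 to 4898 on leaving out 1 array. The 416 in SKBrM3 were 2619 with array weights (1110 higher), 2456 with SKBrM3 arrays alone and 26 to 2682 on leaving out 1 array. The 434 of the average were 89 to 6772, and the 0 of the difference 0 to 1897, or 3 with 1 probe set per gene. The 9638 between the lines (33.4% of 28860 tested) were 5167 with 1 probe set per gene (39.7% of 13002 tested). They were 5185 to 13746 on leaving out 1 array.

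The first-minus-second differences of the groups correlated at 0.45 between the 231BrM control and doxycycline arrays and between -0.07 and 0.12 for the other 5 pairs of groups. As not every pair was over 0.1, the replicate numbers were not taken to pair the samples, and the block was kept as an alternative. With the replicate number as a block, 13, 289, 325, 0 and 9463 probe sets were called in the 5 comparisons, 0, 0, 0, 0 and 12 of them members. The depth of an array is not a read count, and signal over background was not analysed here, so low probe sets such as those of GAB1 have no measured floor.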
